A study of Mus musculus with 9 samples.

Results

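The cytosolic ribosomal protein genes encode the proteins of the ribosome that translates messenger RNA in the cytosol. They were taken as the autosomal protein-coding genes of mouse build GRCm38 whose symbols begin with Rpl (large subunit) or Rps (small subunit) and a number, without the Rps6k kinases and the pseudogenes whose symbols carry -ps. The rule found 81 genes, 48 Rpl and 33 Rps, among 20665 autosomal protein-coding genes and 21631 on the autosomes and X together. It used names and chromosomes and no measured value. Among the 81, Rps19bp1 (a protein that binds RPS19) and Rps23rg1 (a membrane protein from a retrogene of Rps23) are not themselves ribosomal proteins, and 10 symbols are suffixed copies or paralogs of another ribosomal protein gene. The 4 X-linked symbols Rpl10, Rpl36a, Rpl39 and Rps4x fell outside the rule, and the first 3 are used only beside their autosomal copies.

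The tissue was the nucleus accumbens of male C57BL/6J mice, 8 weeks old, in a study of chronic social defeat, and CpG methylation was read by bisulfite sequencing of the whole genome. The labels describe 10 days of defeat, 1 a day, by an aggressive CD1 male, in the same words for every library, and sort the libraries into 5 Control (numbered 2, 3, 4, 5 and 8) and 4 Susceptible (numbered 2, 3, 6 and 7). The sources used here give neither the handling of Control mice nor the test that scored susceptibility. The DNA came from frozen tissue punches with all their cell types, so a change in a cell's methylation and a change in the mix of cells cannot be told apart. The labels give no further word on whether libraries came from separate animals. Each p-value thus sets a group difference against variation between libraries, with dispersion moderated across genes. The start levels of cell type markers, which are not levels of RNA, ran in Control and Susceptible libraries from 6.81 ± 0.499% and 7.22 ± 0.491% (SD, n = 5 and 4) for 12 striatal projection neuron markers to 75.9 ± 1.94% and 75.1 ± 2.73% for 8 microglia markers. All 5 marker lists overlapped between the groups at the start. The widest gap was that of 8 astrocyte markers, 56.4 ± 5.89% against 49.6 ± 6.05%.

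Ribosomal proteins are made in near-equal amounts, and their genes are transcribed at a high rate in nearly every cell. Their promoters lie in CpG islands, stretches rich in CG dinucleotides that escape the methylation found over most of the genome. Transcription begins at a C within a run of pyrimidines, the terminal oligopyrimidine tract, through which mTOR signalling sets the translation of these messages. The same abundant messages are often copied back into the genome by retrotransposition. Such copies lack introns and land without the parent's promoter, and most have decayed into pseudogenes.

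The libraries listed 313475624 to 570984634 CpG calls at 13446563 to 22631489 cytosines, each covered by at least 10 calls, at a mean of 20.2 to 26.7 calls per listed cytosine. Every Susceptible library held more calls than every Control library. Control libraries had an autosomal methylation of 76.4 ± 0.510%, and Susceptible libraries one of 75.8 ± 0.964%. At autosomal CpGs of intermediate level, the squared difference between the 2 strands was set against that from counting error. The mean ratio was 18.4 and 19.7 in the Control 5 and Control 8 libraries, against 2.38 to 6.10 in the other 7. For named members, the floor and the pooled members, a difference is given without those 2 libraries where that moved it by over 1.5 times. Where a level is given for every library, the Control values follow the order of libraries 2, 3, 4, 5 and 8, and the Susceptible values that of libraries 2, 3, 6 and 7.

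The sequences before the start show how far a parent promoter and a retrotransposed copy can differ. The 250 bases upstream of 5 starts are printed 5′ to 3′ on the gene's strand from RefSeq on GRCm38.p6, with every CG in capitals, because these are the sites at which methylation was read. Rps27, the parent, lies at chr3:90213649-90213898 (minus strand), and its copy Rps27rt at chr9:114982740-114982989 (minus strand). Rpl36al, an autosomal copy of X-linked Rpl36a, lies at chr12:69184068-69184317 (minus strand). Rpl10l, the copy of X-linked Rpl10 that serves male germ cells, lies at chr12:66284402-66284651 (minus strand). Rpl39l, the testis-expressed relative of X-linked Rpl39, lies at chr16:10169978-10170227 (plus strand).
Rps27: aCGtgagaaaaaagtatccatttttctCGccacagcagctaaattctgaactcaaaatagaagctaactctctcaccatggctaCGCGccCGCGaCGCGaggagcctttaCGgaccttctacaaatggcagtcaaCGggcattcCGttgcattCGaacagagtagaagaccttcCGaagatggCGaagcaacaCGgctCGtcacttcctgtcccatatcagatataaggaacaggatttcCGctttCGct
Rps27rt: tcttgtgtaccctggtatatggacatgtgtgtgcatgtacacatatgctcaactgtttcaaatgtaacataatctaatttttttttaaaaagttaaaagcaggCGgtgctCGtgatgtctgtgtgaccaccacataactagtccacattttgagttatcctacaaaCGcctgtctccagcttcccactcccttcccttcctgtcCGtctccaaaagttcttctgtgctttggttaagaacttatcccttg
Rpl36al: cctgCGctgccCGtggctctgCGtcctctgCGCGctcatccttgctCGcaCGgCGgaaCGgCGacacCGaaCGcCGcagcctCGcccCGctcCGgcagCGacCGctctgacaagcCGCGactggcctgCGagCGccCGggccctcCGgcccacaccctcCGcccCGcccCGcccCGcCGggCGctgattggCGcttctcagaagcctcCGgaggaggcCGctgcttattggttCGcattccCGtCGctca
Rpl10l: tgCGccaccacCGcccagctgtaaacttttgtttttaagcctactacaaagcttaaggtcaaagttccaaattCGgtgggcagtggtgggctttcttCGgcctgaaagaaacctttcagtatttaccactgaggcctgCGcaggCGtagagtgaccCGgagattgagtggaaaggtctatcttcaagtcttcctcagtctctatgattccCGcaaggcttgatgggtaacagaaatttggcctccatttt
Rpl39l: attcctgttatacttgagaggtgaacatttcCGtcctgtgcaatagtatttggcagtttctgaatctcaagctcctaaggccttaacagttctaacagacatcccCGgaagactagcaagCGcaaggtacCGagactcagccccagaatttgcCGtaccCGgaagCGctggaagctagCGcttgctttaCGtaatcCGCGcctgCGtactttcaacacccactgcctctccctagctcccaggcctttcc

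Over the calls of all 9 libraries, the 18 CpGs before Rps27 read 0.893% methylated and the 36 before Rpl36al 1.02%. The 4 CpGs before Rps27rt read 96.4%, the 8 before Rpl10l 98.2% and the 12 before Rpl39l 94.5%. The libraries ranged from 0.430 to 1.73% before Rpl36al and from 93.2 to 100% before Rpl10l, so the ranges of the 2 copies did not overlap.

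The 30 bases around 5 starts show the pyrimidine tract. Each run has 10 bases before the annotated start, and the capitals mark the unbroken C and T from the start base on. Rpl15 and Rpl7a are among the least methylated members, Rps27 and Rps27rt are a parent and its copy, and Rpl32l is a methylated relative of Rpl32. Their positions are chr14:18270967-18270996 (minus), chr2:26910797-26910826 (plus), chr3:90213629-90213658 (minus), chr9:114982720-114982749 (minus) and chr10:20208429-20208458 (plus).
Rpl15: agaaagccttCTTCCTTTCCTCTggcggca
Rpl7a: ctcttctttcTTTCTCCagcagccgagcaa
Rps27: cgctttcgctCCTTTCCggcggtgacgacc
Rps27rt: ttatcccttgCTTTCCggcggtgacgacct
Rpl32l: aaatgaccagCTTCTTCCTTggtgctgcct

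Counted only from the annotated start base on, the tract was 13 bases long at Rpl15, 7 at Rpl7a and Rps27, 6 at Rps27rt and 10 at Rpl32l. At Rpl15, Rpl7a and Rps27 the run of C and T also reached back before that base. At Rpl7a it took in all 10 bases printed before the start, so these lengths do not compare whole runs. Rps27rt and Rps27 share an unbroken run of 38 bases that begins at the first base of the copy and the second base of the parent. The base just before that run differs between the copy and the parent. In 6 other pairs of copy and parent with a RefSeq promoter window the longest shared run was 7 or 8 bases.

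RefSeq promoter windows of 300 bases (250 before the start and 50 from it on) were found for 55 members that read under 20% methylated at the start and for 7 that read 20% or more. The median window held 22 CpGs in the first set and 9 in the second, against 14 over 16457 autosomal genes. The ratio of observed to expected CpGs was 0.903, 0.409 and 0.595. A C at the annotated start base followed by at least 4 pyrimidines occurred in 11 of the 55 windows and 2 of the 7, against 2.18% of all windows. This count needs the annotated start to be exact to the base. Rpl7a, whose annotated start is a T within a run of pyrimidines, was not counted. A C followed by 5 more pyrimidines, with that C within 5 bases of the start, occurred in 43.6% of the 55, in 3 of the 7 (42.9%) and in 10.2% of all.

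Motif words were searched on both strands, and none of the words contains another. The ETS word CCGGAAG stood in 21 of the 55 windows (38.2%) and in 12.3% of all windows. The YY1 word AAGATGGC, found before Rps27, stood in 9.09% against 3.23%, and the SP1 word GGGCGG in 33 of the 55 against 47.3% of all. The TATA word TATAAA stood in 5.45% against 13.5%. In the 7 windows of members at 20% or more, the ETS, SP1 and TATA words each stood in 1 and the YY1 word in 0. The ETS and SP1 words each hold a CG, and the 55 windows had a median of 22 CpGs against 14 over all. The shares were not matched for CpG content. A match describes letters in these windows and not a bound factor.

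At the start, taken as 1000 bp to each side, 73 of the 81 genes read under 20% methylated on the mean over 9 libraries. In all, 53 read under 5% (65.4%, against 35.0% of 19741 autosomal protein-coding genes with values), and 21 read under 2%. The median over the members was 3.41%, against 10.2% over all genes. For 62 members the start came from RefSeq's strand, and for 19 without an entry the CpG-richer gene end stood in, a choice that favours CpG islands.

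Rps29, a small protein of the 40S subunit, had the lowest start. It read 0.603, 1.20, 0.656, 0.0654 and 1.04% in the Control libraries and 1.36, 0.840, 1.56 and 1.28% in the Susceptible libraries. The groups overlapped, and Control 5 stood lowest. Rpl7a with a mean of 1.19%, Rpl15 with 1.20% and Rps27l with 1.26% were also among the 5 lowest. Rpl7a and Rpl15 belong to the 60S subunit, and Rps27l is a p53-responsive paralog of Rps27.

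The highest of the 73 low starts was that of Rpl7l1, a nucleolar relative of Rpl7. It read 11.8, 20.5, 6.82, 32.7 and 23.6% in the Control libraries and 9.44, 8.87, 12.5 and 15.2% in the Susceptible libraries, for a mean of 15.7%. Its level within 250 bp of the start was only 0.875%. Within 1000 bp, on cytosines listed in all 9 libraries, Rpl7l1 read 78.1 to 94.4%. Its level thus depended on which cytosines were counted. Rpl41, which encodes the smallest ribosomal protein, read 11.1%, Rps24 9.65%, Rps19bp1 8.89% and Rpl21 8.58%. Their levels within 250 bp were 2.58, 1.25, 1.11 and 1.39%, so the wider window took in methylated flanks. The next member above the 20% line was Rps23rg1 at 37.4%.

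**Figure D1:**
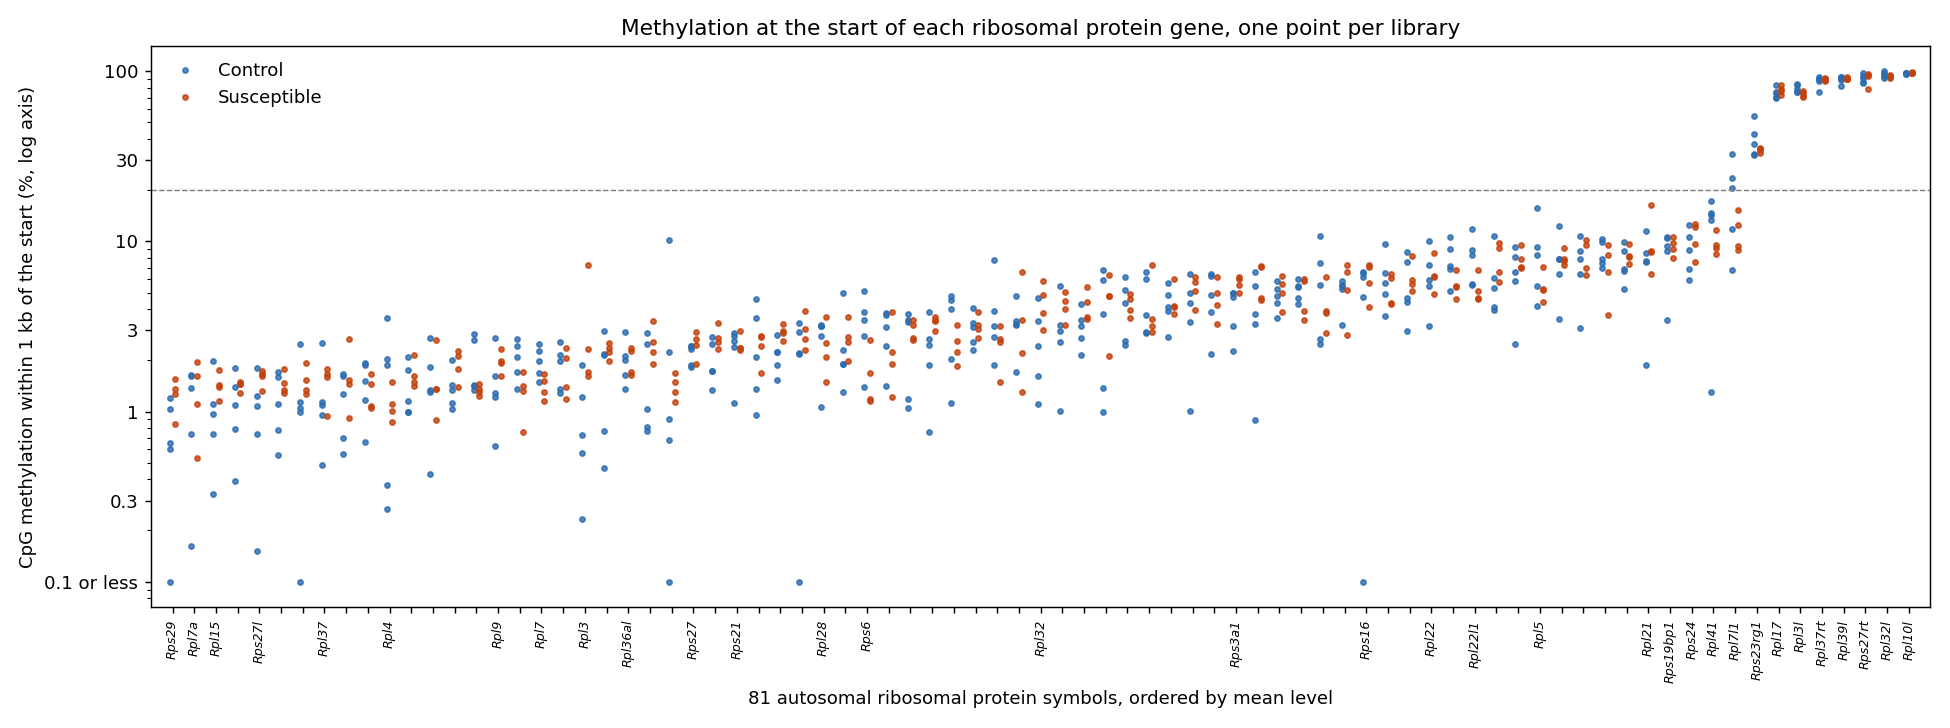
CpG methylation within 1000 bp of the start (percent, log axis, levels under 0.1 drawn at 0.1) of 81 ribosomal protein symbols ordered by their mean, with 1 point per library, blue for 5 Control and orange for 4 Susceptible, and names at some of the genes the text describes. The level climbs from 0.956% at Rps29 to 15.7% at Rpl7l1, and 8 genes stand above the dashed line at 20%.

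The low region had a floor that was nearly flat. Pooled over the 73 low members in bins of 100 bp, the level was 1.19% in the last bin before the start, 0.922% from 100 to 199 bp after it and 1.17% from 500 to 599 bp. It was 11.2% in the bin 501 to 600 bp before the start and 18.2% from 1000 to 1099 bp after it. The island was thus set towards the transcribed side. All autosomal protein-coding genes leaned the same way. In Control and Susceptible libraries they read 24.2 and 23.3% in the bin 501 to 600 bp before the start. From 500 to 599 bp after it they read 13.5 and 13.2%.

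**Figure D2:**
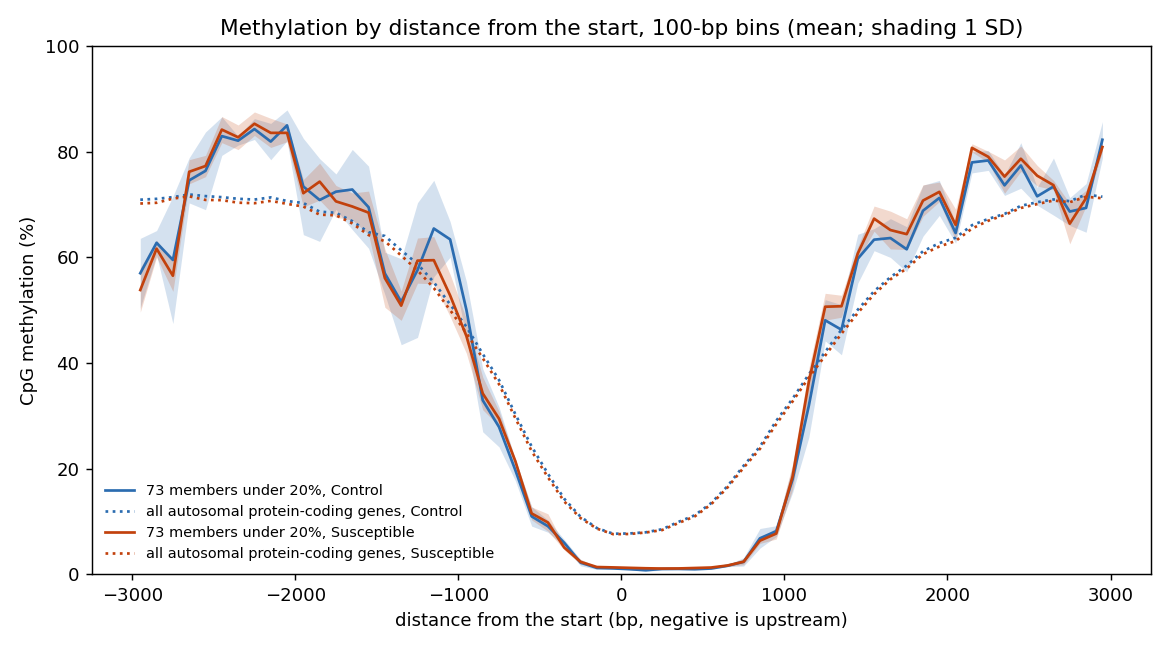
Mean CpG methylation (percent) against distance from the start (bp, 100-bp bins, negative upstream) for the 73 low members (solid) and all autosomal protein-coding genes (dotted), by group, with shading of 1 SD over libraries. The members' trough reads about 1% from the start to 599 bp after it, and the 2 groups lie over each other across most of the 3000 bp shown on each side.

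Each of the 73 low members had a bounded low region, measured from the start outward to the first 3 consecutive CpGs whose level was 50% or more. The median region was 2022 bp wide with 96 CpGs and read 2.46% inside. It reached 704 bp upstream and 1269 bp downstream at the median, and in 64 of 73 the larger part lay downstream. Rpl22l1, a paralog of Rpl22, had the narrowest region at 1132 bp.

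The levels within 1000 bp moved with these borders. In 59 of 73 regions at least 1 arm was shorter than 1000 bp. Spearman's rho across members was −0.637 between the start level and the length of the shorter arm and −0.355 between the start level and the width. Both are descriptions over 73 genes read in the same libraries, and both measures come from overlapping cytosines.

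A second protein-coding start lay within the window of 14 members. In 9 pairs RefSeq gave both strands and they were opposite, and in 5, among them Rpl37 with Card6 and Rpl4 with Zwilch, a start was taken from the CpG-richer end, so the strand is not known. The distances ran from 10 bp for Rps28 and Ndufa7, and 51 bp for Rpl37 and Card6, to 283 bp for Rpl4 and Zwilch. Rpl36al lay 91 bp from Mgat2, a Golgi glycosyltransferase, and Rps27 lay 67 bp from Rab13, a small GTPase. No member had the start used for another member in its window.

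The floor of start methylation per library was taken first as the median over the 81 members within 1000 bp. It was 3.17, 3.45, 3.43, 3.17 and 2.78% in the Control libraries and 3.44, 2.97, 3.85 and 3.57% in the Susceptible libraries. The groups overlapped, at 3.20 ± 0.273% (SD, n = 5) and 3.46 ± 0.368% (SD, n = 4). The difference of 0.255 points ran from 0.123 without Susceptible 6 to 0.417 without Susceptible 3, and was 0.105 without Control 5 and Control 8. On cytosines listed in all 9 libraries the medians were 1.95 ± 0.193% and 2.03 ± 0.0796%. In the libraries other than Control 5, the lowest single member ran from Rpl37 at 0.937% in Susceptible 2 down to Rpl6 at 0.0857% in Control 8.

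Within 250 bp of the start, inside the measured borders for all but Rpl29 (143 bp upstream), the 73 low members gave 62408 to 129855 calls per library. Rps27l gave none of these in Control 5. Pooled, they read 1.02, 1.10, 1.01, 0.817 and 0.948% in the Control libraries and 1.25, 1.24, 1.19 and 1.21% in the Susceptible libraries. Every Susceptible library stood above every Control library. The means were 0.980 ± 0.106% and 1.22 ± 0.0274%, a difference of 0.242 percentage points. No p is given, since the 73 members were pooled into 1 score. A cytosine that bisulfite left unconverted also reads as methylated, and no conversion rate was used here, so a level near 1% cannot be told apart from incomplete conversion.

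The same separation was present on cytosines listed in all 9 libraries, at 0.904 and 1.14%, and without Control 5 and Control 8, where the difference was 0.177 points. It was 0.222 points for calls on the coding strand and 0.258 on the template strand. Taken as the median over the low members with calls in place of pooled calls, it was 0.355 points. On cytosines listed in all 9 libraries that median overlapped between the groups, at 0.490 ± 0.335% and 0.936 ± 0.163%. Of the 81 members, 74 had calls at such cytosines in this window.

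Of the 73 low members' cytosines within 250 bp, Control libraries had no methylated call at 92.5 ± 2.49% and Susceptible libraries at 86.4 ± 2.36%, without overlap of the groups. Total calls and the number of listed cytosines also separated the groups, and the mean calls per listed cytosine overlapped, at 22.8 ± 2.46 and 23.2 ± 1.60. The share of cytosines at 20% or more was 1.53 ± 0.214% and 1.36 ± 0.333%, and overlapped.

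The low end of all genes separated the groups in the same direction. The tenth percentile of autosomal genes within 250 bp read 0.305 ± 0.292% in Control and 0.809 ± 0.129% in Susceptible libraries, without overlap. It was 0 in Control 5 and Control 8. On cytosines listed in all 9 libraries it overlapped, at 0 and 0.122 ± 0.143%. The median over all genes in that window overlapped, at 2.10 and 2.17%. On cytosines listed in all 9 libraries that median did not overlap, at 1.41 and 1.83%. Mitochondrial CpGs read 3.62, 2.33, 3.23, 3.35 and 2.76% in the Control libraries and 14.7, 15.1, 10.8 and 8.96% in the Susceptible libraries. The tenth percentile, the mitochondrial CpGs and the total calls separate the same libraries, and the part of any of them in the members' floor was not tested. In the same 250-bp window, the pooled 78 mitochondrial ribosomal protein genes read 1.07 ± 0.0965% and 1.35 ± 0.113%, also without overlap. Other lists overlapped between the groups, with 1.07 and 1.34% for 20 genes of ribosome assembly, 1.15 and 1.20% for 7 ribosomal proteins outside the naming rule, and 2.34 and 2.02% for 12 translation factors.

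**Figure D3:**
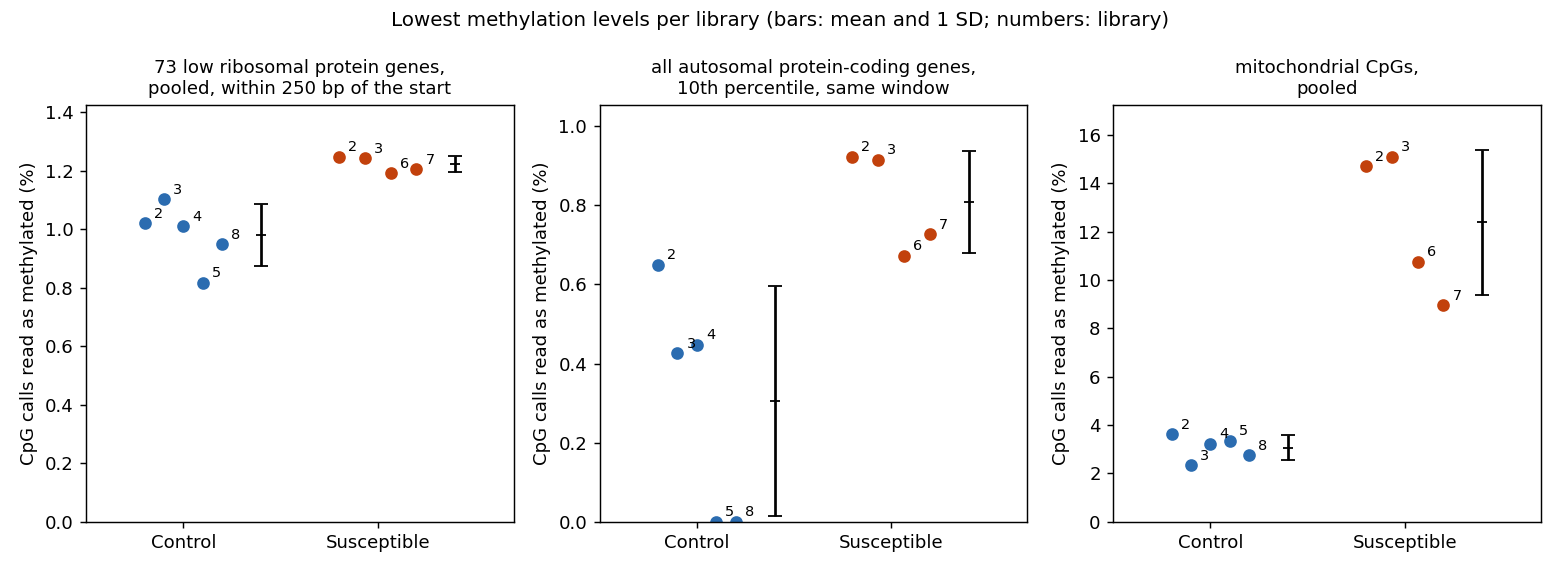
Percent of CpG calls read as methylated per library, numbered as in the labels, for the 73 low members within 250 bp of the start (left), the tenth percentile of all autosomal protein-coding genes in the same window (middle) and mitochondrial CpGs (right), with mean and 1 SD. All 4 Susceptible libraries lie above all 5 Control libraries in each panel, 0.242 points apart on the mean for the members.

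In all, 8 symbols read 20% or more at the start (9.88% of the members, against 40.9% of all genes), and 7 of them are copies, paralogs or genes named after a ribosomal protein. Rpl10l was the highest. It read 98.2, 97.7, 97.2, 96.6 and 96.3% in the Control libraries and 98.2, 97.6, 97.7 and 98.0% in the Susceptible libraries, for a mean of 97.5%. Its X-linked parent Rpl10 read 1.46%. The window of Rpl10l held 71 CpGs, and of 9261 autosomal genes with at least as many only 12 (0.130%) read 90% or more.

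Rps27rt read 85.5, 93.5, 91.2, 97.8 and 86.8% in the Control libraries and 93.2, 94.6, 96.4 and 78.0% in the Susceptible libraries. Its parent Rps27, which encodes a zinc finger protein of the 40S subunit, read 1.84 to 2.94% in the same libraries. Rpl32l read 91.2 to 99.6% with a mean of 94.5%, against 3.41% at Rpl32. The 2 copies are short, spanning 374 bp (Rps27rt) and 592 bp (Rpl32l), and Rpl10l spans 1023 bp. The reference used here holds no exons, so a short span is the nearest measure to a lack of introns.

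A short span alone did not mark a methylated start. Rps27 spans 982 bp, Rpl41 1059 bp, Rps21 1066 bp and Rpl36al 1334 bp, and their starts read 2.31, 11.1, 2.42 and 2.01%. Nor were all methylated symbols short. Rpl39l spans 4715 bp and read 89.8%, Rpl37rt spans 7347 bp and read 88.0%, and Rpl3l spans 8318 bp and read 76.6%. Rpl3l is a paralog of Rpl3 used in striated muscle, and Rpl37rt is a retrocopy of Rpl37. Their parents read 2.90% (Rpl39, on X), 1.35% (Rpl37) and 1.95% (Rpl3).

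Rps23rg1 was intermediate. It read 32.2, 32.5, 37.2, 54.6 and 42.8% in the Control libraries and 33.2, 34.3, 34.8 and 35.1% in the Susceptible libraries. Control 5 and Control 8 stood above the rest, and the groups overlapped. Its level within 250 bp was 21.7% and its gene body 81.6%.

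Rpl17, a protein at the exit tunnel of the 60S subunit, is no copy. RefSeq's table gave it no strand, and the CpG-richer end that stood in held 25 CpGs and read 75.8%. Its gene body read 11.9%. The stretch chr18:74999978-75000978, from 1000 to 2000 bp inside that end, was chosen for its low values after they were seen. It held 73 CpGs and read 1.40%, from 0.606 to 1.75% over the libraries. Where transcription of Rpl17 starts was not tested.

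The other suffixed paralogs had low starts. Rpl36al, with 179 CpGs in its window, read 1.35 to 2.94% over the 9 libraries, and X-linked Rpl36a had a mean of 4.39%. Rps27l had a mean of 1.26%, Rpl22l1 6.80% and Rpl22 6.41%. Rpl7l1 at 15.7% stood above Rpl7 at 1.73%.

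**Figure D4:**
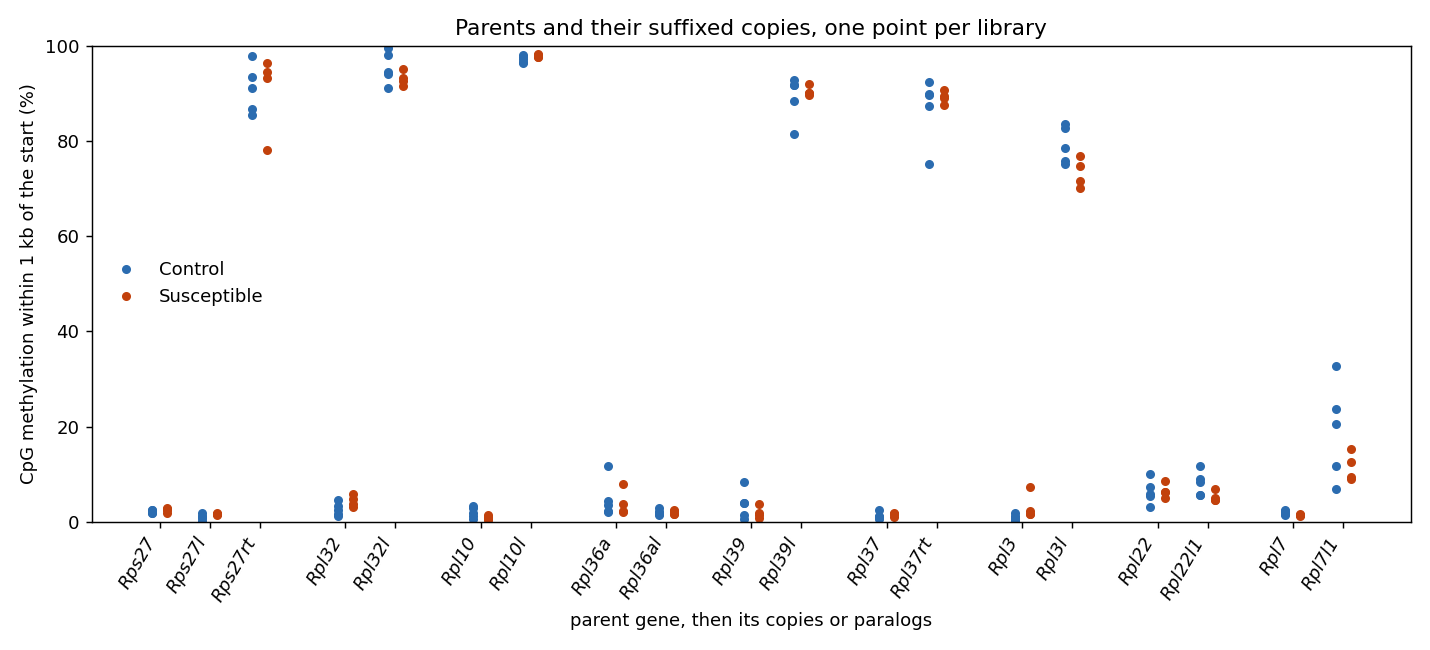
CpG methylation within 1000 bp of the start (percent), 1 point per library, for 9 parent genes, each followed by its suffixed copies or paralogs (blue Control, orange Susceptible). Rps27rt, Rpl32l, Rpl10l, Rpl39l, Rpl37rt and Rpl3l stand above 70% in every library, and Rps27l, Rpl36al and Rpl22l1 lie with the parents, including the X-linked Rpl10, Rpl36a and Rpl39.

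Pseudogenes of the family gave the background for a decayed copy. Of 261 autosomal symbols with -ps, 196 had enough calls over their span, and their median level was 94.4%, from 44.3 to 98.5%. None of the 196 read under 20%, and 161 read 90% or more. Pooled, they read 92.8 ± 0.535% in Control and 93.1 ± 0.749% in Susceptible libraries. Rpl31 had the most such pseudogenes, with 23, then Rpl21 with 14, and the starts of both parents were low. Reads of near-identical copies cannot always be told apart, so the levels inside such copies are uncertain.

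Gene bodies, which in short genes hold much of the low start region, read lower than those of most genes. The median was 18.0% over 80 members with values in every library, against 72.8% over all autosomal genes. Rpl41 had the lowest body at 1.01%, then Rps21 at 1.90% and Rps27 at 2.48%, 3 short genes that lie mostly inside their own low regions. Among members with low starts, Rpl7l1 had the highest body at 73.8%, then Rpl4 at 52.1%. Without the first 1000 bp, the pooled body of all members read 69.4 ± 0.904% in Control and 70.1 ± 0.974% in Susceptible libraries, against 80.8 ± 0.432% and 80.7 ± 1.10% for all autosomal genes.

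The comparison asked whether methylation at these genes differed between Control and Susceptible libraries. Only these 2 groups were present, so susceptibility cannot be told apart from other differences between them. No member passed the test at the start. The quasi-binomial model of summed calls, with dispersion moderated by limma's method and Benjamini-Hochberg adjustment, called 0 of 19470 genes (0.0%), with a smallest adjusted p of 0.937. At an unadjusted p under 0.05 it gave 942 genes (4.84%) and 5 of 81 members, which is near that background. The alternative test, limma on logit methylation, called 0 genes and gave 748 at an unadjusted p under 0.05.

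The 5 members at an unadjusted p under 0.05 were 3 with higher values in Susceptible (background 2.36%) and 2 with lower values (background 2.48%), all at an adjusted p of 0.937 in that model. Rps6, the 40S protein phosphorylated by S6 kinase, read 3.83, 5.12, 3.43, 1.39 and 2.78% in the Control libraries and 2.63, 1.16, 1.18 and 1.69% in the Susceptible libraries. The groups overlapped through Control 5, and the difference was −1.65 points. Rps3a1, of the 40S subunit, read 4.70, 5.01, 4.98, 2.28 and 3.20% in Control libraries and 6.17, 5.57, 4.94 and 6.02% in Susceptible libraries in the same order. Its difference was 1.64 points, with Susceptible 6 inside the Control range, and 0.866 points on cytosines listed in all 9 libraries. Without Control 5 and Control 8, the differences were −2.47 points at Rps6 and 0.780 at Rps3a1.

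Rpl22l1 read 5.54, 8.94, 5.62, 8.26 and 11.8% in the Control libraries and 5.08, 4.63, 4.56 and 6.79% in the Susceptible libraries, a difference of −2.77 points. It was −1.83 points without Control 8 and −1.44 without Control 5 and Control 8. In a window of 500 bp to each side the differences of Rps6, Rps3a1 and Rpl22l1 changed sign, to 0.162, −0.271 and 0.0496 points. Rpl32, of the 60S subunit, read 2.44, 4.62, 3.39, 1.63 and 1.11% in Control and 5.88, 3.77, 3.01 and 4.85% in Susceptible libraries. Its groups overlapped, with a difference of 1.74 points. It was 0.897 points without Control 5 and Control 8, 0.308 at 500 bp to each side and 0.322 on cytosines listed in all 9 libraries.

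Rpl3, the 60S protein near the peptidyl transferase centre, read 0.574, 1.88, 1.22, 0.729 and 0.235% in the Control libraries and 1.71, 2.33, 1.61 and 7.25% in the Susceptible libraries. Its difference was 2.30 points, and 0.956 points without Susceptible 7. The calls behind a member's value in 1 library ran from 121 to 9526.

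The 5 widest differences at the start were −7.57 points at Rpl7l1, −5.80 at Rpl3l, −5.50 at Rps23rg1, −3.13 at Rpl5 and 3.01 at Rpl17. These depended on the window: at 500 and 2000 bp to each side Rpl7l1 differed by −0.247 and −13.95 points, and at 500 bp Rpl3l differed by −12.65 points. Rpl5, which carries 5S rRNA into the 60S subunit, read 9.25, 5.48, 8.32, 15.7 and 4.18% in Control and 5.17, 5.22, 4.38 and 7.09% in Susceptible libraries, so the groups overlapped. Rpl3l read 75.9, 75.3, 83.5, 82.7 and 78.5% in Control and 76.9, 71.6, 70.2 and 74.8% in Susceptible libraries, with Susceptible 2 inside the Control range. Without Control 5, the differences of Rpl7l1, Rps23rg1 and Rpl5 were −4.17, −1.81 and −1.34 points. Without Control 5 and Control 8 together, that of Rpl7l1 was −1.53 points, that of Rps23rg1 0.397 and that of Rpl17 −0.0558. That of Rpl17 was 1.12 points without Susceptible 3 and 5.08 without Control 4.

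No member had groups that did not overlap at the start (0 of 81, background 1.9%). The difference was above 0 in 52 of 81 members (background 48.3%), with a median of 0.308 points, against −0.0430 points over all genes tested. Pooled over the members, the start read 7.44 ± 0.518% in Control and 7.35 ± 0.143% in Susceptible libraries, which overlapped. The difference was −0.0928 points, and −0.208 without Control 5 and Control 8. Over the 73 low members alone the pooled start ran the other way, at 3.69 ± 0.241% and 3.86 ± 0.210%, also with overlap, while the 8 others read 88.2 ± 1.47% and 87.0 ± 0.608%. By subunit, 3 of 48 large-subunit and 2 of 33 small-subunit symbols had an unadjusted p under 0.05, beside 4.84% of all genes.

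**Figure D5:**
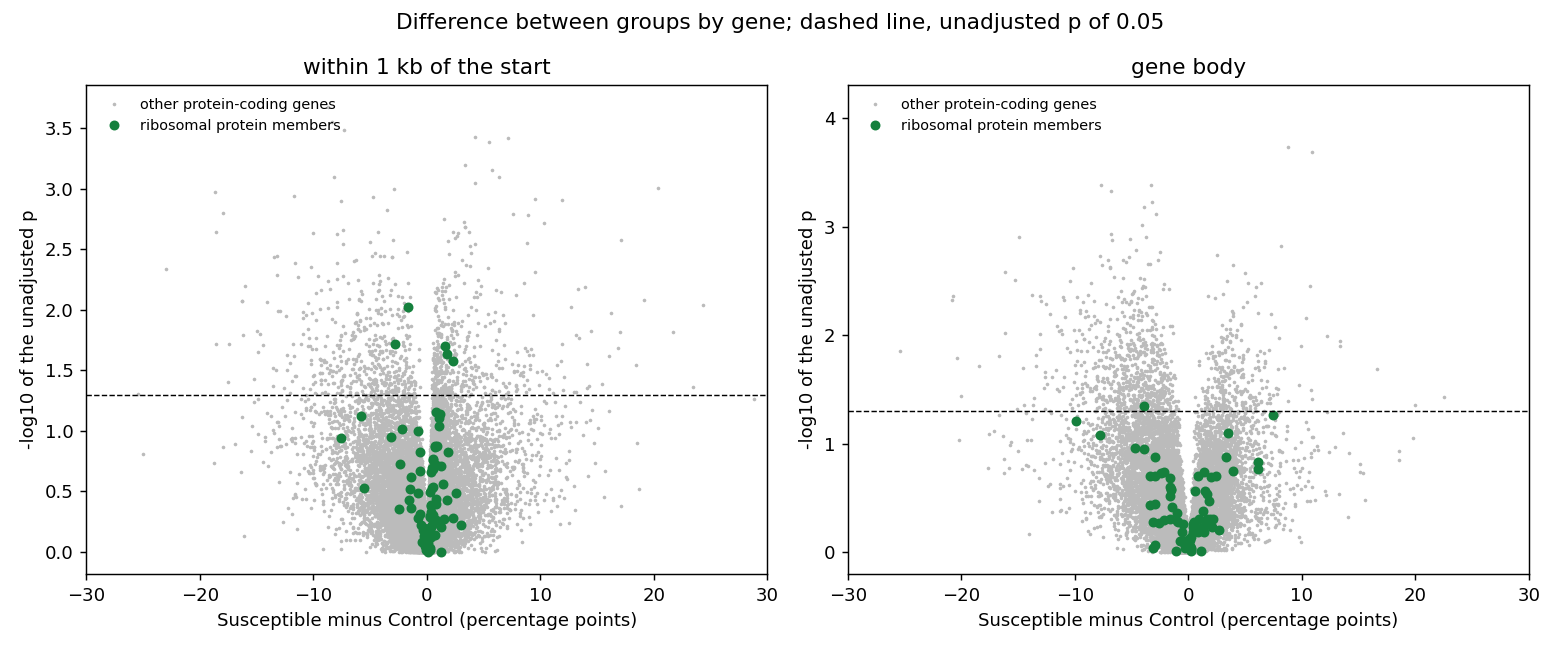
Difference in methylation, Susceptible minus Control in percentage points, against −log10 of the unadjusted p for each protein-coding gene at the start (left) and over the gene body (right), with the members in green and a dashed line at p of 0.05. In green, 5 of 81 members lie above the line at the start and 1 of 80 over the body, and no gene of either panel passed the adjusted test.

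Over the gene body the same model called 0 of 20153 genes (0.0%), with a smallest adjusted p of 0.960. It gave 1031 genes (5.12%) and 1 of 80 members at an unadjusted p under 0.05. By limma on logit methylation, 0 genes were called and 913 passed that unadjusted level. That member was Rpl9, a 60S protein. It read 13.8, 15.7, 20.2, 17.4 and 19.8% in the Control libraries and 11.7, 11.1, 16.3 and 14.7% in the Susceptible libraries. The groups overlapped, with a difference of −3.96 points and an adjusted p of 0.960 in the model moderated by limma's method.

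The groups did not overlap at 1 member body, that of Rpl41 (1 of 80, background 1.62%). It read 1.04, 0.241, 0.936, 0.749 and 0.744% in Control and 1.74, 1.10, 1.39 and 1.19% in Susceptible libraries. The difference of 0.613 points gave an adjusted p of 0.968 in the same limma-moderated model. The body of Rpl41 lies inside its low region.

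The widest body differences were −9.90 points at Rps16, −7.80 at Rpl4, 7.49 at Rpl3, 6.16 at Rps19bp1 and 6.11 at Rpl28. Rps16, of the 40S subunit, read 24.7, 33.0, 38.5, 57.9 and 42.9% in Control and 28.2, 32.0, 28.1 and 29.6% in Susceptible libraries. Control 5 stood apart, and the difference was −5.27 points without it and −2.57 without Control 5 and Control 8. Without Control 8, those of Rpl3 and Rpl28, both of the 60S subunit, were 4.08 and 3.91 points. Without Control 5 and Control 8 they were 4.22 and 2.10 points. That of Rps19bp1 was 3.28 points without Control 5 and 3.43 without both. Rpl4, also of the 60S subunit, read 50.7 to 61.4% in Control and 42.4 to 57.3% in Susceptible libraries. Its difference turned to 1.44 points on cytosines listed in all 9 libraries and to 0.132 without the first 1000 bp. Bodies of the 12 striatal projection neuron markers read 72.8 and 73.5% in Susceptible 6 and 7, against 64.0 to 67.1% in the other 7 libraries, and those of the 8 astrocyte markers read 70.6% in Susceptible 7, against 76.6 to 78.7%. The part of these libraries' cell mix in the members' body differences was not tested.

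The other genes of the translation machinery had like starts. The 7 ribosomal proteins whose symbols the rule does not take, such as Rplp0, Rpsa and Rack1, had a median start of 3.10%. The 12 translation factors whose messages carry the pyrimidine tract, such as Eef1a1 and Eef2, had 2.11%, and 20 genes of ribosome assembly and rRNA transcription 3.80%. No gene of these 3 lists had an unadjusted p under 0.05 at the start. The 78 mitochondrial ribosomal proteins, which build the separate ribosome of the mitochondrion, had a median of 4.64%. In that list 2 genes with higher and 4 with lower values had an unadjusted p under 0.05, beside 2.36% and 2.48% of all genes, and 0 were called.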

How the data were processed

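Whole-genome bisulfite libraries of mouse nucleus accumbens DNA (5 Control, 4 Susceptible), made with a Pico Methyl-seq kit per the labels' protocols, were analysed from 1 file per library. Per the file headers, each CpG cytosine has a chromosome, position and strand, a coverage that is a count of calls, and the percent of calls read as C (methylated) and as T. The deposited files list only cytosines with a count of at least 10 calls. The submitters' processing notes name Bismark, Bowtie, Picard and build mm10, with no versions or roles. Methylated calls were recovered as the rounded product of coverage and percent, and the first of a repeated entry was kept (4 in Control 5, 8 in Control 8).

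Calls were summed per library over 1000 bp to each side of the start, 250 bp to each side, and the gene body, with positions, strands and promoter sequences from RefSeq on GRCm38.p6, which is the mm10 assembly. Genes needed 3 cytosines and 20 calls in every library. A quasi-binomial logistic model (R 4.3.3, dispersion moderated with limma 3.58.1 and kept at 1 or more, Benjamini-Hochberg over all genes tested, threshold 0.05) compared the groups, after it had been tested on simulated data. The starts of single members rest on 121 to 9526 calls per library. The median dispersion of the members at the start was 10.3, against 9.33 over all genes tested, where 1 is counting error alone. The summed levels of libraries thus varied by more than counting error. Libraries also differ in which cytosines they list and in how far their strands disagree, and the part of either in the dispersion was not tested. The planned comparison of gene span with coding length and of proteins between copies and parents needs a protein table that was not used here, so spans alone are given. Where RefSeq's promoter table had no entry, no strand was taken.

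The members, the gene lists and the tests were chosen with earlier results of these data known. Named members are those at 20% or more at the start, the 5 lowest and 5 highest of the others, members with an unadjusted p under 0.05 or groups that do not overlap, the 5 widest differences per window, and suffixed paralogs with their parents. A few items that the rule or the lists take are not reported here by name. The level within 250 bp of the start, the regions' borders and the neighbours were added after the data were seen. Alternatives were other windows, minimums and starts, cytosines listed in all 9 libraries, limma on logit methylation (offset 0.5 calls), a replicate block, and each library left out in turn.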

Additional observations from a re-analysis of the deposited data

Results flagged for a closer look

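In 42 groups of 4 or 5 libraries looked at, 1 held a library far from the others. The start of Rpl3 read 7.25% in Susceptible 7, against 1.61 to 2.33% in the other Susceptible libraries, and the gap to the nearest was 0.873 of the group's range. Chance flags about 1 in 20 such groups.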

How the results depend on the processing

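No gene was called in either window under any alternative run, the 9 fits that leave out 1 library each included, and the smallest adjusted p of a named member was 0.664. Sizes and signs of single members' differences moved with the window, the cytosines and the libraries. At the start, Rpl17 turned to −4.52 points at 2000 bp to each side, −1.57 at 500 bp and −0.0558 without Control 5 and Control 8. At 500 bp, Rpl22l1 turned to 0.0496, Rps3a1 to −0.271 and Rps6 to 0.162. On cytosines listed in all libraries, Rpl3l turned to 0.270 and Rps23rg1 to 11.2, and the latter to 0.397 without Control 5 and Control 8. Over the body, Rpl4 turned to 1.44 on cytosines listed in all libraries and to 0.132 without the first 1000 bp, where Rps19bp1 turned to −1.11. Without the first 1000 bp the pooled body difference was 0.712 points, against −0.489. The latter was −0.876 without Control 2, −0.241 without Control 5 and −0.242 without Control 5 and Control 8. As a median over the low members, the difference within 250 bp was 0.355 points, against 0.242, and from 0.201 to 0.273 with 1 library left out. The cause of these changes was not tested.

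Members at an unadjusted p under 0.05 numbered 4 to 8 at the start and 0 to 5 over the body with 1 library left out, beside 3.57 to 6.07% and 4.19 to 6.29% of all genes in the same fits. They numbered 8 at 2000 bp (4.98% of all genes), and 7 and 0 without Control 5 and Control 8 (5.73 and 4.91%). limma on logit methylation gave 2 and 3 (3.84 and 4.53%). Control and Susceptible share the numbers 2 and 3, and same-numbered libraries deviated with correlations of 0.0172 and −0.0175 over genes. All pairs ran from −0.0550 (Control 5 with Susceptible 7) to 0.108 (Control 4 with Susceptible 7). These values do not tell what a shared number means. With the replicate block (4 libraries) 0 genes were called, with 2 members at the start and 6 over the body at an unadjusted p under 0.05, beside 5.19 and 4.21% of all genes. The same 4 libraries without the block gave 2 and 6, beside 6.18 and 6.09%. In both of these fits Rps23rg1 turned to 1.41 points at the start and Rps16 to 1.29 over the body. Differences were 0.793 points at Rpl3, −1.33 at Rpl3l, −2.58 at Rps6 and 1.02 at Rps3a1 at the start, and 1.06 at Rpl3 and 0.417 at Rpl28 over the body. The pooled start difference ran from −0.213 to 0.128 points with 1 library left out, and changed sign without Control 3. Only cytosines with 10 or more calls are listed, so shallow cytosines of the less deep Control libraries do not enter.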
